A study of Rattus norvegicus with 90 samples.

Results

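The late gastrin response of AR42J cells was read from 8 of the 90 arrays of the series. These were the gastrin and the untreated arrays at 8 and 10 h in batches 2 and 3, chosen by stimulus, time and batch in the labels, which gives 4 gastrin arrays, 4 untreated arrays and 4 pairs of one batch and time. AR42J is a rat cell line from a tumour of the acinar pancreas. The first group was AR42J cells given gastrin for 8 or 10 h, at a dose the labels do not state. The second was AR42J cells of the same batch with no stimulus, collected at the same time. Both groups are one cell line, and the labels give no difference in genotype between them. The labels number the sets of arrays as batches and mark these 8 arrays as no technical replicates. They do not say whether the batches were separate cultures. A p-value here covers only how far the fitted arrays varied, those of other times and batches included, and that variation may be technical.

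Gastrin is a peptide hormone of the stomach. It binds the cholecystokinin B receptor, which signals through calcium, protein kinase C and MAP kinases. Acinar cells make digestive enzymes in bulk and depend on amino acid supply and on protein folding in the endoplasmic reticulum. ATF4 is a transcription factor that raises genes of amino acid synthesis and import when protein synthesis or amino acids are under strain. Before S phase a cell loads the MCM helicase onto replication origins, a step called licensing, and E2F factors switch on many of the genes for it.

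All levels are in the deposited log2 units, and a change is gastrin minus untreated, with its standard error (SE) as estimated by limma. The SE draws on the spread within all 31 pairs of the fit, from 6 batches and other times too. It is therefore not the spread of the 4 pairs at 8 and 10 h. Each time had 2 pairs and the mean of 8 and 10 h had 4. A probe passed the test with a Benjamini-Hochberg adjusted limma p under 0.05 over all 22523 probes. The gastrin array of batch 2 at 10 h stood apart from the other 7 on a score that follows one axis of variation among untreated arrays of other batches. Its score was 0.706, against 0.461 in its untreated partner, and the other 6 arrays ranged over 0.398 to 0.474. A high score was not confined to this array. In batches 2 and 3, gastrin arrays scored 0.854 and 0.799 at 1.5 h, against 0.441 and 0.504 in untreated ones. At 14 h they scored 0.539 and 0.579, against 0.432 and 0.406, but at 8 h both scored 0.398, below their untreated partners. Gene list counts in the mean of 8 and 10 h that changed without the 10 h pair of batch 2 are also given without it. What sets the score apart was not tested. Most acinar markers were bright, and some neuroendocrine and ductal markers were too. Of 13 measured acinar markers, 12 had a mean signal at or above the 75th percentile of all probes. Of 9 neuroendocrine markers 3 did, with Chgb at the 98.9th percentile, and 4 were below the 50th. Of 5 ductal markers measured for this purpose 1 did, Krt19 at the 86.4th percentile, and 2 were below the 50th. All 7 measured stromal, immune and endothelial markers were below the 50th. Their summed level ranged over 41.99 to 42.52 on gastrin arrays and 42.15 to 42.53 on untreated arrays, and none of them passed the test. The summed neuroendocrine markers ranged over 68.74 to 69.48 with gastrin and 68.23 to 68.79 without it, and none of the 9 passed.

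Over the mean of 8 and 10 h, 544 probes were higher (2.42%) and 436 were lower (1.94%) with gastrin, together 4.35% of the probes tested. The largest rises were in genes of acinar proteases, of the ATF4 response and in clusterin, and reached 2.46 units. No fall of a named gene exceeded 1 unit. In bulk RNA, fewer cells of a kind and less RNA per cell cannot be told apart. Of the 980 probes that passed, 965 moved the same way in all 4 pairs, against 5449 of all 22523 probes (24.2%). The 980 were picked by a test on these same 4 pairs, which favours the same direction, so this count is no separate support. The gastrin and untreated groups did not overlap in any of the 12 largest rises and 12 largest falls, and across the array they did not overlap for 2343 probes (10.4%). Those rises and falls were picked for passing the test with the same direction in all 4 pairs, which favours groups apart. Leaving out the 10 h pair of batch 2 gave 222 higher and 107 lower, and removing any other pair gave 369 to 631 probes. Of the 12 rises, 11 passed under each of the 4 removals of one pair, the exception being Nppc (adjusted limma p up to 0.105). Of the 12 falls, 7 did.

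**Figure D1:**
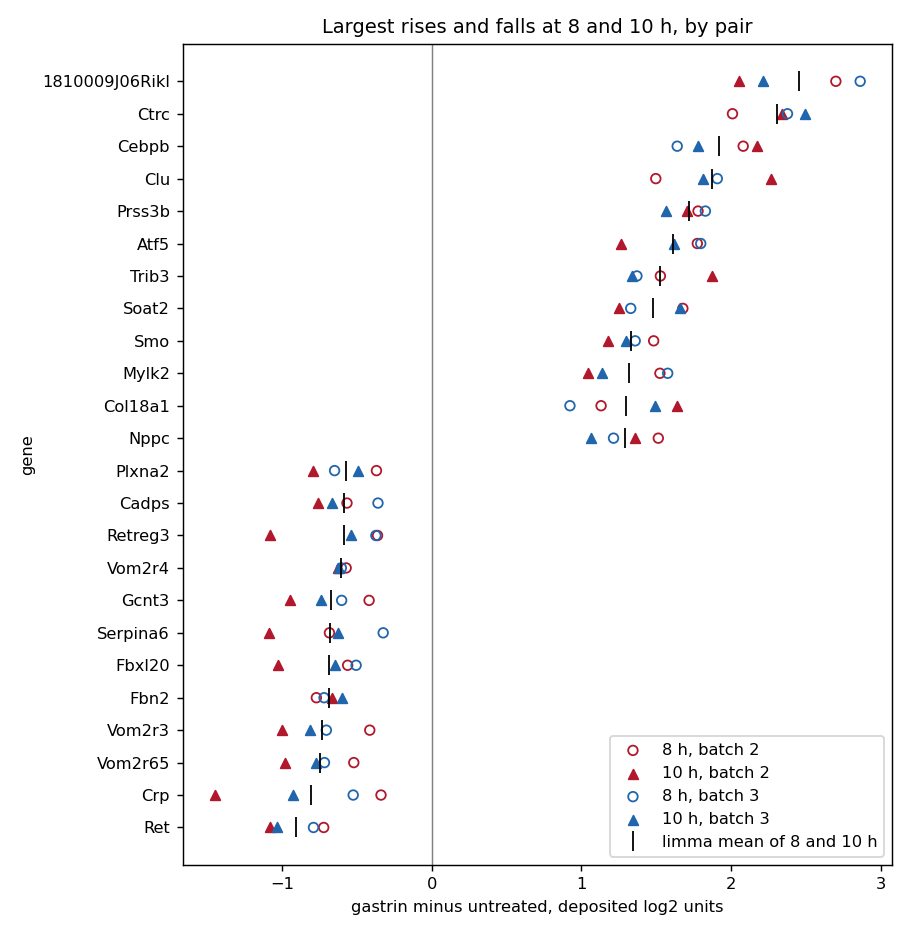
Change in each pair (gastrin minus untreated, deposited log2 units, horizontal axis) for the 12 largest rises and 12 largest falls, one gene per row. Open circles are 8 h, filled triangles 10 h, red batch 2 and blue batch 3, and the black bar is the limma mean. Every point of a rise lies right of 0 and every point of a fall left of it, and Crp and Retreg3 have their lowest value in batch 2 at 10 h.

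Some digestive enzymes rose with gastrin, several of them proteases. Of 27 measured enzymes and cofactors, 7 rose and 1 fell in the mean of 8 and 10 h, with a median change of 0.06 against 0.00 over all probes. The same counts, 7 and 1, were found without the 10 h pair of batch 2. Ctrc, chymotrypsin C, which activates and degrades trypsinogens, had levels of 12.78 and 12.64 at 8 h and 13.08 and 12.89 at 10 h with gastrin, in batches 2 and 3. The untreated levels were 10.78 and 10.27 at 8 h and 10.73 and 10.40 at 10 h. Every gastrin array was well above every untreated one. The change was 2.30 ± 0.18 (SE, n = 4 pairs, limma, adjusted p = 5.4e-10), which is 4.94-fold on a plain log2 scale. Untreated cells also moved over the course, with Ctrc at 9.44 at 2 h and 10.73 at 10 h in batch 2.

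The strongest rise of any named gene was in 1810009J06Rikl, which RefSeq lists under the synonyms P23 and Try4 and which belongs to the trypsinogen family. Its levels with gastrin were 14.03 and 13.82 at 8 h and 13.59 and 13.69 at 10 h, against 11.33, 10.96, 11.54 and 11.48 in untreated cells in the same order. All gastrin values exceeded all untreated values, and the change was 2.46 ± 0.15 (SE, n = 4 pairs, limma, adjusted p = 1.6e-11). Prss3b, another trypsinogen, stood at 8.56, 8.49, 8.39 and 8.54 with gastrin and at 6.78, 6.66, 6.68 and 6.98 without, a change of 1.72 ± 0.25. The trypsinogens Prss1 and Prss3 rose by 1.16 ± 0.16 and 1.01 ± 0.13. These trypsinogens are close relatives, and probes for one may bind transcripts of another, so their separate values are uncertain.

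Among elastases, Cela3b was 13.17, 13.21, 13.36 and 13.30 with gastrin, against 11.97, 11.91, 12.01 and 12.02 in untreated cells. The 4 gastrin arrays lay together, far from the untreated ones, and the change was 1.28 ± 0.09 (SE, n = 4 pairs, limma, adjusted p = 1.6e-10). Cela2a rose by 0.55 ± 0.07, and Pnlip, the pancreatic triglyceride lipase, by 0.58 ± 0.11. Clps, the colipase that anchors this lipase to fat, fell instead. It was 13.69, 13.45, 13.54 and 13.48 with gastrin and 14.21, 13.99, 14.11 and 14.00 in untreated cells, a change of -0.53 ± 0.09 (SE, n = 4 pairs, limma, adjusted p = 0.00016). Cpa1, carboxypeptidase A1, did not pass (0.04 ± 0.05), nor did chymotrypsinogen Ctrb1 (0.13 ± 0.07), elastase Cela1 (-0.17) or amylase Amy2a3 (0.02). Their probes were at or above the 98.5th percentile of signal. None of 14 factors of the pancreatic lineage passed. Rbpjl, which partners the acinar factor Ptf1a, came nearest at -0.35 ± 0.11 (limma, adjusted p = 0.056).

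**Figure D2:**
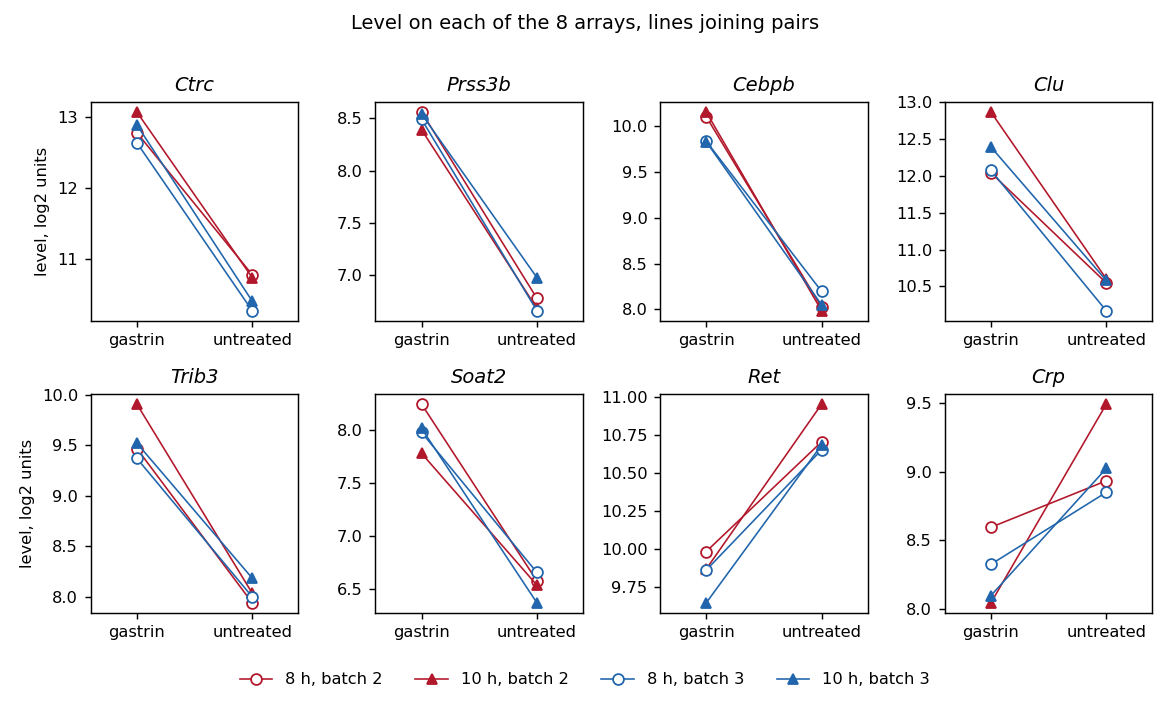
Level (log2 units, vertical axis, not starting at 0) of 8 genes on each of the 8 arrays, with gastrin arrays at the left of each panel and untreated arrays at the right. A line joins a gastrin array to the untreated array of its batch and time, with open circles for 8 h, filled triangles for 10 h, red for batch 2 and blue for batch 3, and no panel has overlapping groups.

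Genes of the ATF4 amino acid response moved upwards. Of 26 measured members, 14 rose and none fell in the mean of 8 and 10 h, all 26 changes were above 0, and the median was 0.40 against 0.00 over all probes. Without the 10 h pair of batch 2, 8 rose and the median was 0.43. At 8 h alone 7 rose, when 0.946% of all probes passed and 0.697% were higher. At 10 h alone 6 rose, where 2.29% of all probes passed and 1.35% were higher, and the median was 0.405. Without the 10 h pair of batch 2, which leaves a single pair there, the median was 0.4. Passing at 10 h rests on 2 pairs.

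Cebpb, a leucine zipper factor that pairs with ATF4, was 10.10, 9.84, 10.16 and 9.83 with gastrin and 8.02, 8.20, 7.99 and 8.05 in untreated cells, in the order 8 h of batches 2 and 3, then 10 h. The groups were far apart, with a change of 1.92 ± 0.28 (SE, n = 4 pairs, limma, adjusted p = 3.9e-05). Atf5, a relative of ATF4, rose by 1.61 ± 0.19, with its lowest gastrin value of 8.72 in batch 2 at 10 h. Trib3, a pseudokinase that restrains ATF4 and AKT, was 9.47, 9.37, 9.91 and 9.52 with gastrin, against 7.94, 8.0, 8.04 and 8.19 in untreated cells. It changed by 1.53 ± 0.27 (limma, adjusted p = 0.00045). Ddit3, the CHOP factor of prolonged stress, rose by 0.95 ± 0.16. The test of the difference between its changes of 1.21 at 8 h and 0.69 at 10 h did not pass. Atf4 itself rose by 0.52 ± 0.11, with an adjusted limma p of 0.0036 and of 0.066 without the 10 h pair of batch 2. Chac1, which degrades glutathione, rose by 0.89 ± 0.24 and did not pass once any 1 pair was left out (adjusted limma p 0.082 to 0.23).

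Composite C/EBP-ATF elements are short promoter sequences bound by ATF4 and its partners. The letters TGATGNAA were searched on both strands of the 250 bases upstream of each gene start in the RefSeq promoter table (GRCr8). They occurred in 7 of the 23 list members with a promoter there (30.4%), against 2.77% of 10976 array genes and 3.58% of all 27457 genes in the table. The list was made of ATF4 response genes, so a share above that of all genes is no result on gastrin. Of the 13 members that rose and had a promoter, 3 held them (23.1%), namely Trib3, Chac1 and Pck2. Fgf21, Jdp2, Nupr1 and Slc7a1 held them and did not pass. The upstream windows of Trib3 and Chac1 are printed because Trib3 was among the 12 largest rises and Chac1 carries the same element. Capitals mark the match, here on the opposite strand. The Trib3 window is chr3:161275534-161275783 on the minus strand and the Chac1 window is chr3:126795881-126796130 on the plus strand.
Trib3: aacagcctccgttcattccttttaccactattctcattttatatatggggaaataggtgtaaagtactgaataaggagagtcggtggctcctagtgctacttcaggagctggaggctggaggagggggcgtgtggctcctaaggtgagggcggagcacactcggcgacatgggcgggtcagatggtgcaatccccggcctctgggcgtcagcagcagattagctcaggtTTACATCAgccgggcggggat
Chac1: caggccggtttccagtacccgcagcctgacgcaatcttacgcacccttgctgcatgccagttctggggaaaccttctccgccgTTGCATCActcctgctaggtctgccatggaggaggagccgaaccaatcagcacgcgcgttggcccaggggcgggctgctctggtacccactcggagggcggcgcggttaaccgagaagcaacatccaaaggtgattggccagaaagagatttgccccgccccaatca
The match begins at position -21 in Trib3 and -167 in Chac1, counted back from the gene start. A match describes these letters and shows no binding. Asns, which rose by 0.92 ± 0.11, had no match in its window.

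Enzymes that make serine, asparagine and one-carbon units rose beside these factors. Of 14 measured, 9 rose and none fell, with a median change of 0.39, and 5 rose without the 10 h pair of batch 2. Some genes stand on more than one list, such as Asns, Phgdh and Pck2. Asns, asparagine synthetase, was 10.52, 10.36, 10.33 and 10.22 with gastrin and 9.44, 9.31, 9.61 and 9.41 in untreated cells, with no overlap. Phgdh, which commits glucose carbon to serine, rose by 0.76 ± 0.10 (limma, adjusted p = 1.8e-05). Cbs, which condenses serine with homocysteine, rose by 0.96 ± 0.10, with the same change of 0.96 at each time. The mitochondrial folate enzyme Mthfd1l rose by 0.68 ± 0.10 and Psph, the last enzyme of serine synthesis, by 0.63 ± 0.12. All 5 of these passed under each removal of one pair.

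Aminoacyl-tRNA synthetases charge transfer RNAs. Of 17 cytosolic enzymes, 7 rose in the mean of 8 and 10 h, with a median of 0.32, and none passed at 8 h or at 10 h alone. None passed without the 10 h pair of batch 2, although the median was 0.32 there too. Eprs1 is the glutamyl-prolyl enzyme. Its levels with gastrin were 8.93 and 8.81 at 8 h and 9.88 and 9.05 at 10 h, against 8.39, 8.42, 8.54 and 8.56 in untreated cells. The gastrin array of batch 2 at 10 h was the highest by far, and the adjusted limma p was 0.030 with it and 0.46 without it. Of 24 amino acid transporters 5 rose and none fell, with a median of 0.03, and 2 rose without the 10 h pair of batch 2. Slc3a2, the heavy chain shared by several of these carriers, rose by 0.44 ± 0.08 and passed under every removal of one pair.

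Chaperones and degradation factors of the endoplasmic reticulum rose in part. Of 30 measured, 13 rose and none fell, with a median of 0.28, and 10 rose without the 10 h pair of batch 2. Creld2, an ER stress protein with disulfide isomerase activity, was 11.83, 11.80, 11.77 and 11.78 with gastrin, against 11.10, 11.14, 11.05 and 11.06 in untreated cells. The arrays of a group lay close together and the groups did not overlap, with a change of 0.71 ± 0.07 (SE, n = 4 pairs, limma, adjusted p = 2.4e-08). Manf, a secreted factor of ER stress, rose by 0.55 ± 0.06. Sdf2l1, Dnajb11, Hsp90b1, Sec61b and Calr, which fold proteins, assist chaperones or form the translocon, rose by 0.38 to 0.45. Hspa5, the chaperone BiP, rose by 0.28 ± 0.07, with changes of 0.41 at 8 h and 0.16 at 10 h. It did not pass under 2 of the 4 removals of one pair (adjusted limma p up to 0.21).

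**Figure D3:**
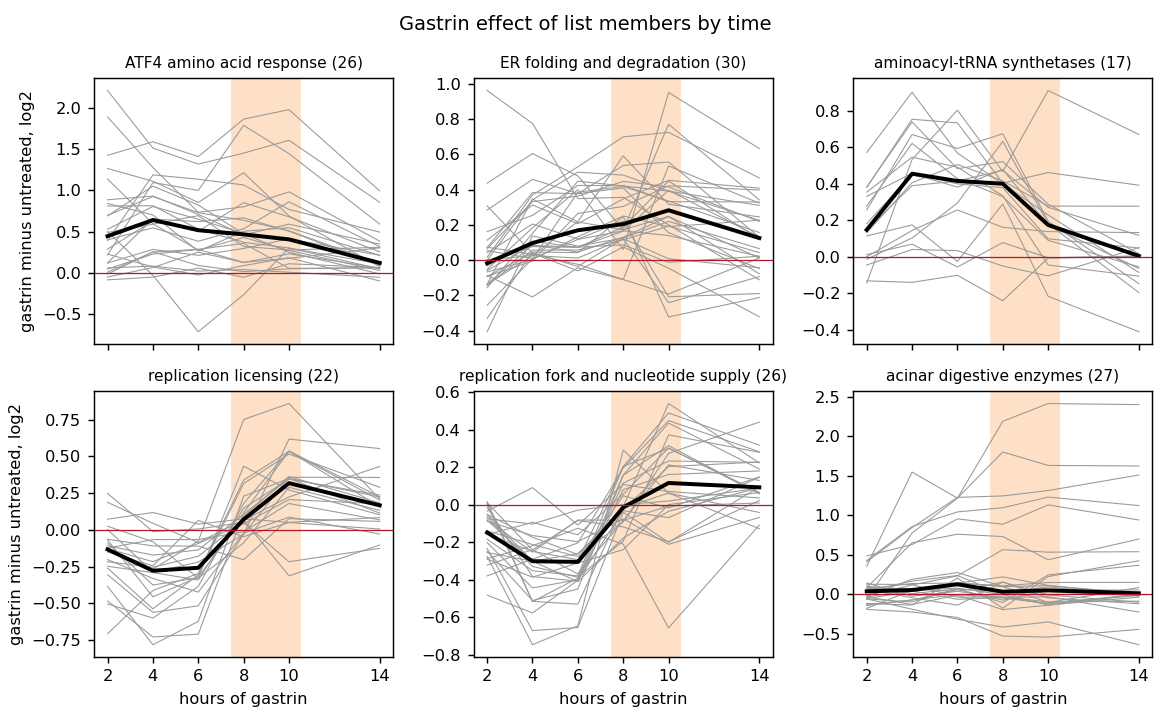
Gastrin minus untreated (log2 units, vertical axis, scale differing between panels) against hours of gastrin for 6 gene lists, with the number of measured members in brackets. Grey lines are single genes from the limma fit, the black line is their median and shading covers 8 and 10 h. The medians of both replication lists lie below 0 at 6 h and above 0 at 10 h, and that of the ATF4 list is 0.52 at 6 h and 0.12 at 14 h.

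Secreted and growth-linked genes moved both ways. Clu, clusterin, an extracellular chaperone of the injured pancreas, was 12.04 and 12.08 at 8 h and 12.87 and 12.39 at 10 h with gastrin, against 10.55, 10.17, 10.60 and 10.58. Its change was 1.87 ± 0.18 (SE, n = 4 pairs, limma, adjusted p = 4.0e-08), and the highest value was again batch 2 at 10 h. Col18a1, collagen XVIII and the source of endostatin, rose by 1.30 ± 0.09, with pair differences of 1.13 and 0.92 at 8 h and 1.64 and 1.49 at 10 h. Nppc, C-type natriuretic peptide, rose by 1.29 ± 0.29, with 10.10, 10.21, 9.51 and 9.76 in gastrin cells and 8.59, 8.99, 8.15 and 8.69 in untreated cells. Both groups of Nppc were widely spread, though they did not overlap. Soat2, which esterifies cholesterol, rose by 1.48 ± 0.14, Smo, the hedgehog signal transducer, by 1.33 ± 0.12, and Mylk2, a myosin light chain kinase of skeletal muscle, by 1.32 ± 0.12. Plat, tissue plasminogen activator, rose by 0.57 ± 0.15 and did not pass once any 1 pair was left out (adjusted limma p 0.079 to 0.22).

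The falls were smaller. Ret, the receptor tyrosine kinase for GDNF family ligands, was 9.99, 9.86, 9.87 and 9.65 with gastrin and 10.71, 10.65, 10.95 and 10.69 in untreated cells. The groups did not overlap and the change was -0.91 ± 0.20 (SE, n = 4 pairs, limma, adjusted p = 0.0066). It passed under 1 of the 4 removals of one pair (adjusted limma p 0.045 to 0.079). Crp, C-reactive protein of the acute phase, was 8.59, 8.32, 8.04 and 8.10 with gastrin, against 8.93, 8.85, 9.49 and 9.02. Its change was -0.43 at 8 h and -1.19 at 10 h, and for the mean the adjusted limma p was 0.021 with the 10 h pair of batch 2 and 0.27 without it. Vegfc, a growth factor of lymphatic vessels, fell by 0.55 ± 0.08 and passed under each removal of one pair, while Vegfa rose by 0.28 ± 0.08 and passed under none. Fbn2, the microfibril protein fibrillin 2, fell by 0.69 ± 0.12. Vomeronasal receptor probes for Vom2r65, Vom2r3 and Vom2r4 fell by 0.75, 0.73 and 0.61. These are receptors of the rodent vomeronasal organ, a large family with similar sequences, so which transcript the probes bind is uncertain.

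Among cyclic AMP targets, Rrad and Nfil3 rose. Of 20 CREB and cyclic AMP targets 6 rose and none fell, with a median of 0.24, and 2 rose without the 10 h pair of batch 2. Rrad, a small GTPase that restrains calcium channels, was 8.16, 8.25, 7.83 and 8.10 with gastrin and 6.84, 6.79, 6.91 and 6.84 in untreated cells, a change of 1.24 ± 0.11. Nfil3, a repressor tied to the circadian clock, rose by 1.04 ± 0.23, with an adjusted limma p of 0.0061 and of 0.075 without the 10 h pair of batch 2. Cry1, a clock repressor, rose by 0.43 ± 0.07, while Tef, a clock output factor, and Nr1d1, a clock repressor, fell by 0.44 ± 0.08 and 0.55 ± 0.16, giving 2 higher and 2 lower of 13 clock genes. Without the 10 h pair of batch 2 these counts were 1 and 1, and Nr1d1 did not pass (adjusted limma p 0.35). Of 21 immediate early factors 1 rose, Egr2, and 1 fell, Srf, and neither passed without the 10 h pair of batch 2 (adjusted limma p 0.33 and 0.062). Egr1 was 0.73 ± 0.37 and Fos 0.47 ± 0.28, and neither passed. Of 24 regulators that limit MAP kinase signalling only Zfp36l1, an mRNA decay factor, passed, at 0.86 ± 0.14.

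Of 20 genes of gastrin receptor signalling, 1 rose and 2 fell. Itpr1 and Itpr2, calcium release channels opened by inositol trisphosphate, moved in opposite directions. Itpr1 was 10.17, 10.07, 9.82 and 9.89 with gastrin, against 9.59, 9.44, 9.64 and 9.52, and Itpr2 was 7.13, 7.11, 7.17 and 7.07 with gastrin, against 7.46, 7.53, 7.43 and 7.40. Neither pair of groups overlapped, with changes of 0.44 ± 0.09 and -0.33 ± 0.07 (SE, n = 4 pairs, limma, adjusted p = 0.0026 and 0.0028). Cckbr, the gastrin receptor, did not pass (-0.01 ± 0.16). In the glutathione list 2 of 22 rose, Chac1 and the cystine carrier Slc7a11, and 1 fell. Neither rise passed without the 10 h pair of batch 2 (adjusted limma p 0.23 and 0.11). The gene that fell was Gclc, which makes the first product of glutathione synthesis, at -0.46 ± 0.08.

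Other lists had few or no members past the test in the mean of 8 and 10 h. Mitosis and spindle genes had 1 of 29 higher, cholesterol and fatty acid synthesis 1 of 25 higher, and ribosome biogenesis 1 higher and 1 lower of 26. Among survival and apoptosis genes 1 of 21 was lower, and none of 16 p53-linked genes passed. Of these calls only Lyar, the higher ribosome biogenesis gene, passed without the 10 h pair of batch 2. Among 21 G1 to S regulators Cdk6 was higher, and E2f3 and the retinoblastoma gene Rb1 were lower, at -0.31 ± 0.06 and -0.39 ± 0.09. Of these 3, E2f3 alone passed without the 10 h pair of batch 2. Krt19, a duct keratin, was the 1 of 12 ductal markers to pass, at -0.30 ± 0.06, and did not pass without that pair (adjusted limma p 0.22). Of 21 Reg and acute phase genes Clu and Socs1 rose and Crp fell, and of 27 growth and invasion genes 5 rose and 2 fell. Without the 10 h pair of batch 2, only Clu of the Reg and acute phase genes passed, and of the growth and invasion genes 1 was higher, Col18a1, and 1 lower, Vegfc.

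The separate times overlapped in part. At 8 h, 157 probes were higher and 56 lower (0.249%), and at 10 h, 304 were higher and 212 lower (0.941%). They shared 133 probes, all moved the same way, which is 62.4% of those at 8 h and 25.8% of those at 10 h. The test of 10 h minus 8 h found no probe (limma adjusted p at least 0.614, with 1313 probes at an unadjusted p under 0.05). A probe past the threshold at one time only is thus not shown to differ between them. Among the largest falls at 8 h, Tpcn2, a lysosomal calcium channel, was 0.58 lower and Nell2, a secreted neural protein, 0.55 lower, and at 10 h they were 0.51 and 0.43 lower. Rbfox1, a splicing factor of neurons and muscle, was among the falls at 10 h. It was 8.68 and 8.94 at 8 h and 8.26 and 8.27 at 10 h with gastrin, against 9.08, 9.11, 9.09 and 9.11. Gastrin arrays at 10 h were the lowest and untreated arrays were alike, with a change of -0.29 at 8 h and -0.83 ± 0.10 at 10 h (limma, adjusted p = 1.1e-05 at 10 h). Leaving out the 10 h pair of either batch leaves a single pair at that time, and fewer probes then passed at 10 h.

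**Figure D4:**
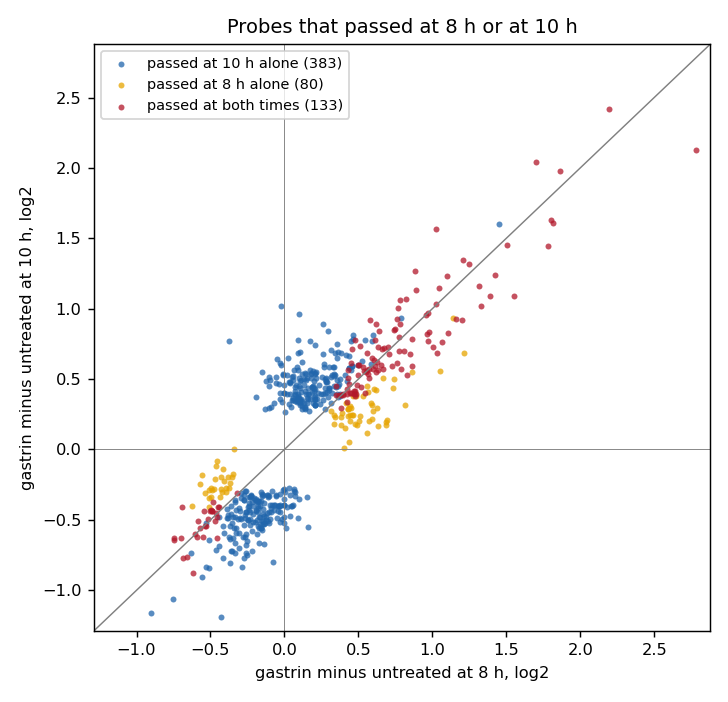
Change at 8 h (horizontal axis) against change at 10 h (vertical axis), gastrin minus untreated in log2 units, for the 596 probes that passed at either time, with the line of equal change. Red points passed at both times (133), orange at 8 h alone (80) and blue at 10 h alone (383), and 551 of the 596 have the same sign at both times.

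In the fit of all batches, genes whose gastrin effect differed from that at 6 h were in large part genes of DNA replication. The 8 arrays at 6 h came from batches 2 to 5, with 4 gastrin and 4 untreated arrays. Batches 4 and 5 had no arrays at 8 or 10 h, so a difference from 6 h includes any difference between batches. Against the gastrin effect at 6 h, the mean effect at 8 and 10 h was higher for 29 probes (0.129%) and lower for 1 (0.00444%), together 0.133% of all probes. The 30 probes named 27 genes, of which 15 stand on the 2 replication lists. Of 22 licensing genes 9 were higher by this test, with a median difference of 0.44, and of 26 fork and nucleotide genes 6 were higher, with a median of 0.36, against 0.00 over all probes. Without the 10 h pair of batch 2, 4 probes passed, 2 of them licensing genes, with medians of 0.45 and 0.37. Within batches 2 and 3 alone, 66 probes passed, 33 higher and 33 lower, and 17 of them were among the 30. There 7 licensing and 3 fork genes were higher, with medians of 0.30 and 0.35, and so were 4 cholesterol and fatty acid synthesis genes. Lower were 4 CREB and cyclic AMP targets, 3 aminoacyl-tRNA synthetases and 2 amino acid transporters, among others.

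All 29 probes had a gastrin effect below 0 at 6 h, 19 were above 0 at 8 h and 28 were above 0 at 10 h. Of the 29, 11 passed as higher in the mean of 8 and 10 h. They were picked for a difference from 6 h, which favours low effects at 6 h. At 6 h, 8 licensing and 17 fork genes were lower with gastrin, where 2.13% of all probes were lower. In the mean of 8 and 10 h, 6 licensing and 2 fork genes were higher and none was lower, and without the 10 h pair of batch 2, 1 licensing gene and 0 fork genes were higher. At 10 h alone the counts were 8 and 4 higher, with medians of 0.317 and 0.116. Without the 10 h pair of batch 2, which leaves a single pair there, the medians were 0.306 and 0.148. Passing at 10 h rests on 2 pairs. At 14 h, where 0.706% of all probes were higher, 3 licensing genes and 1 fork gene were higher. No probe passed the test of 14 h minus the mean of 8 and 10 h (limma, 1413 probes at an unadjusted p under 0.05). Within batches 2 and 3 alone, 244 probes passed that test, 103 higher and 141 lower. The lower ones included 8 genes of the ATF4 list, 5 of the serine list, 5 aminoacyl-tRNA synthetases and 1 licensing gene, and no member of these lists was higher.

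Mcm3, a subunit of the replicative helicase, had gastrin levels of 9.49 and 9.20 at 8 h and 10.05 and 9.65 at 10 h, against 9.23, 9.23, 9.32 and 9.32 in untreated cells. At 6 h it was 8.79, 8.58, 9.05 and 9.57 with gastrin in batches 2 to 5, against 9.50, 8.98, 9.94 and 10.39. Gastrin cells were thus below their untreated partners in every pair at 6 h, close to them at 8 h and above them at 10 h. The effect was 1.03 ± 0.14 higher at 8 and 10 h than at 6 h (limma, adjusted p = 0.00066) and passed under each removal of one pair. Its own change in the mean of 8 and 10 h was 0.32 ± 0.10 (limma, adjusted p = 0.052).

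Orc1, of the origin recognition complex, was the member that rose most in the mean of 8 and 10 h. It was 8.33, 8.25, 8.61 and 8.27 with gastrin and 7.47, 7.62, 7.66 and 7.49 in untreated cells, a change of 0.80 ± 0.10 (SE, n = 4 pairs, limma, adjusted p = 7.1e-06). At 6 h its pair differences were 0.24 and 0.15 in batches 2 and 3 and -0.42 and -0.28 in batches 4 and 5, so the batches disagreed in sign there. Cdt1, the loader of the helicase, and its inhibitor Gmnn, geminin, rose by 0.44 ± 0.10 and 0.35 ± 0.09. Mcm2 rose by 0.41 ± 0.09. None of these 3 passed in the mean without the 10 h pair of batch 2 (adjusted limma p 0.080 to 0.21).

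Against 6 h, Mcm6 was 0.91 ± 0.17 higher, Gins1 of the helicase activator 0.81 ± 0.13, the polymerase delta subunit Pold1 0.80 ± 0.14, and the primase partner Pola2 0.73 ± 0.13. E2f1, which drives S phase genes, was 0.77 ± 0.14 higher, with an effect of -0.64 at 6 h, -0.04 at 8 h and 0.29 at 10 h. Of the 8 genes named for this difference Mcm3 alone passed under all 4 removals of one pair. All 8 passed within batches 2 and 3 alone, but they had been picked for the same direction in these batches. In this test Rbfox1 was the 1 lower gene, at -0.56 ± 0.10.

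**Figure D5:**
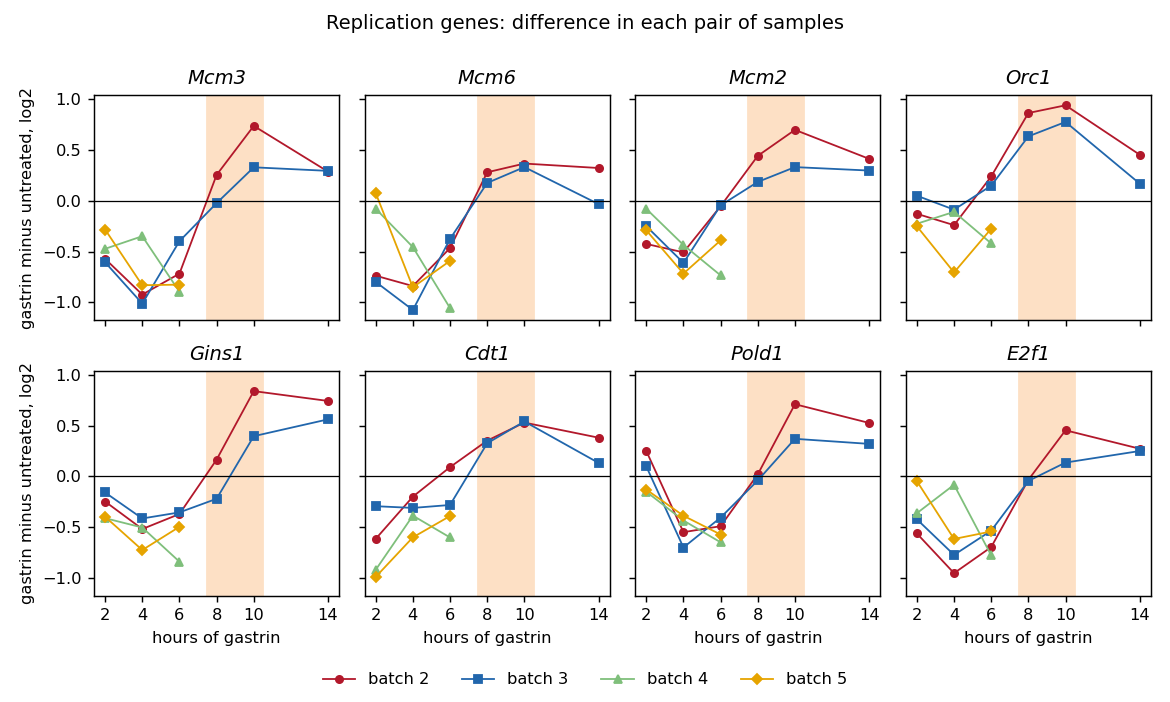
Gastrin minus untreated (log2 units, vertical axis) against hours of gastrin for 8 replication genes, one line per batch, with shading over 8 and 10 h. Batches 4 and 5 end at 6 h. Mcm3 is below 0 in all 4 batches at 6 h and at 0.74 and 0.33 in batches 2 and 3 at 10 h.

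E2F factors bind short GC-rich elements. The 4 words TTTCCCGC, TTTCGCGC, TTTGCCGC and TTTGGCGC were searched on both strands of the same 250 bases, where matches on opposite strands may overlap. They occurred in 8 of the 17 licensing genes with a promoter in the table (47.1%) and in 4 of 24 fork genes (16.7%), against 2.59% of array genes and 1.91% of all genes in the table. The lists were made of replication genes, many of which E2F factors switch on, so a share above that of all genes is no result on gastrin. Of the 8 licensing genes that were higher than at 6 h and had a promoter, 4 held a match. Gins3, Mcm7, Mcm8 and Orc5 held a match too and did not pass against 6 h. A match was thus not confined to the licensing genes that changed. Of the 6 fork genes that were higher than at 6 h, 2 held a match, Pola1 and Uhrf1. Tyms and Ung held one and did not pass against 6 h. The windows of the 4 higher licensing genes with a match, in capitals, are printed as examples of genes that changed between 6 h and 8 to 10 h. Those of Pola1 and Uhrf1 are not printed. They are chr3:160184670-160184919 on the plus strand for Gins1, chr4:122918095-122918344 on the minus strand for Mcm2, chr19:13488563-13488812 on the plus strand for Mcm5 and chr13:42404353-42404602 on the minus strand for Mcm6 (GRCr8, RefSeq).
Gins1: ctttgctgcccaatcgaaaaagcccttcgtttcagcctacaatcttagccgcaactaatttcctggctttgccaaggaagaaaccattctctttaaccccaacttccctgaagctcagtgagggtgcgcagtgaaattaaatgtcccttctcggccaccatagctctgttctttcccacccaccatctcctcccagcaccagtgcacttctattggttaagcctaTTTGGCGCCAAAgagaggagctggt
Mcm2: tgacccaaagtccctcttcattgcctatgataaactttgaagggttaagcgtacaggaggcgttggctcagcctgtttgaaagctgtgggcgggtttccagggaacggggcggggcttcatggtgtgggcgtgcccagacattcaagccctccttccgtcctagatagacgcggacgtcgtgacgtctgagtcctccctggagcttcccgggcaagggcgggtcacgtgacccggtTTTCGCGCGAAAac
Mcm5: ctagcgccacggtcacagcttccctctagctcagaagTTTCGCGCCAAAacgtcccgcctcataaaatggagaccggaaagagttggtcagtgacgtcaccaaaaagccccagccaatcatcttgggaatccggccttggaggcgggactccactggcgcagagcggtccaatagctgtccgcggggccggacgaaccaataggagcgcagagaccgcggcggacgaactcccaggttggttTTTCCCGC
Mcm6: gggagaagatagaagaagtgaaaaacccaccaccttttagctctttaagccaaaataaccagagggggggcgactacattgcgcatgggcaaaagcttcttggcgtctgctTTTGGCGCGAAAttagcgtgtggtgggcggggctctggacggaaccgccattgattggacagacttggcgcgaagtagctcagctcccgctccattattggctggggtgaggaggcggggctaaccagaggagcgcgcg
In each of the 4 windows a match on one strand overlapped a match on the other, beginning at -25 and -21 in Gins1, -14 and -10 in Mcm2, -213 and -209 in Mcm5 and -139 and -135 in Mcm6. Mcm5 had a further match at -8. Mcm3 had none in its window. These are letters in a window and no test of E2F was made.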

How the data were processed

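RNA of AR42J cells was measured on Illumina bead arrays, 90 in the series. The authors deposited a table of log2 values for 22523 probes, and per the submitters' processing notes lumi 2.4.0 was used. The sources used here do not say whether the scale is plain log2 or variance-stabilised, and folds assume plain log2. Array medians lay between 6.403 and 6.406 and no array pair was identical. Bead arrays give no read depth, and the number of arrays limits the precision. Probe names came from the platform annotation, which gave 1 symbol to 13793 probes and none to 8730.

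Groups, times and batches came from the labels. The labels of 2 arrays contradicted each other, and these were left out. limma 3.58.1 (R 4.3.3) was fitted to gastrin and untreated samples of 6 batches, with each pair of one batch and time as a block and a gastrin effect per time. P-values were Benjamini-Hochberg adjusted over all probes at 0.05. Same-numbered batches deviated together (correlation of batch differences 0.199 at 8 h and 0.247 at 10 h), and the labels give the batch. On simulated data for the mean of 8 and 10 h over 22523 probes, 92% and 94% of 50 changes of 0.5 and -0.5 were recovered, all changes of 1 unit were, and 14 false calls were made. The simulated noise was independent and had one spread per probe for all batches, with no array set apart. These rates therefore may not hold for the real arrays.

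Named genes were the 12 largest rises and 12 largest falls in the mean, the 8 largest each way in other comparisons, and list members by size of change or role. Where a gene had several probes, the brightest stood for it. The samples, the 26 gene lists, the array score and the tests were chosen with earlier results of these data known. Alternatives covered the samples fitted, the block, dim probes, the variance model, the probes of a gene, the array score and leaving out replicates.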

Additional observations from a re-analysis of the deposited data

Results flagged for a closer look

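The 9 results singled out here are genes whose gastrin effect at 8 and 10 h differed from that at 6 h by the limma contrast of these times. The helicase and loading genes Mcm3, Mcm6, Orc1 and Cdt1 had differences of 1.03, 0.91, 0.88 and 0.73 log2 units. Gins1, of the helicase activator, had 0.81. The polymerase genes Pold1 and Pola2 had 0.80 and 0.73, and the S phase regulator E2f1 had 0.77. Rbfox1, a splicing factor, had -0.56. Their adjusted limma p-values ranged over 0.00066 to 0.019. When single pairs at 8 or 10 h were left out, the adjusted limma p of Mcm3 lay between 0.00082 and 0.027, and that of each of the other 8 exceeded 0.05 at least once, reaching 0.16 for E2f1.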

How the results depend on the processing

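No result reversed. Counts of probes past the threshold moved most with the block and the samples fitted. With no replicate block, 42 probes passed in the mean of 8 and 10 h, against 980 with pairs as the block, 7 at 8 h against 213, 4 at 10 h against 516, and 0 for the difference from 6 h against 30. With batch as an additive block the counts were 388, 76, 100 and 0. With batches 2 and 3 alone they were 2504 (1210 higher and 1294 lower), 851, 2411 and 66 (33 higher and 33 lower, 17 shared with the 30), and 63 for 10 h minus 8 h and 244 for 14 h minus the mean, against 0 for both as reported. With the 8 arrays alone they were 2225, 733 and 2105, and 38 for 10 h minus 8 h. With the array score as a covariate they were 386 at 8 h, 75 for the difference from 6 h and 2 for 14 h. Leaving out replicates gave 155 to 631 probes in the mean, 22 to 213 at 8 h, 31 to 434 at 10 h, 0 to 20 for the difference from 6 h and 0 to 1 for 14 h. The cause was not tested. With 2 pairs at each time, differences between 8 and 10 h are poorly resolved, and probes of similar transcripts are not separated.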
